A study of Homo sapiens with 4 samples.

Results

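The mRNA decay and deadenylation factors are 53 human genes, taken from a list of names, and they were examined as RNAs recovered with YTHDF1, not as proteins. They cover CCR4-NOT (11 genes), decapping (8), nonsense-mediated decay (7) and the exosome (12), the 4 groups that are compared here, together with PAN2, PAN3 and PARN, the TOB and BTG adaptors (4 genes), the exonucleases XRN1 and XRN2, the TNRC6 proteins (3) and the ZFP36 proteins (3). A member counts as listed when its symbol has at least 1 window in the deposited table of YTHDF1 peaks. By that rule 35 of the 53 genes were listed and 18 were not. The whole table lists 6679 protein-coding symbols. Of these, the 6368 that could be matched to RefSeq are the listed protein-coding genes used for comparison below.

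The peaks come from RNA immunoprecipitation sequencing (RIP-seq), in which a protein is pulled down and the RNA bound to it is sequenced. SNU638, a gastric cancer cell line, overexpressed YTHDF1, was starved of serum for 24 h, after which IFN-γ was added at 10 ng/ml and left for 24 h. All 4 libraries share these conditions, 2 of IP-YTHDF1 and 2 of input RNA, each pair labelled as biological replicates. Because YTHDF1 was overexpressed and every library was treated, the table holds no comparison with endogenous YTHDF1 or with untreated cells. The table gives a signal value, a p-value and a q-value for each 50 bp window with a q-value of at most 0.05. It has no value per library, so no spread between replicates and no depth can be given, and all comparisons between genes below are descriptions without a test. No unit is attached to the signal value. Over all 26819 distinct windows it ran from 0.70 to 9.46 with a median of 1.84. Among epithelial markers, EPCAM, KRT8, KRT18 and KRT19 were listed and CDH1, CLDN18, MUC1 and TFF3 were not, and none of 5 markers of immune, stromal and endothelial cells was listed.

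YTHDF1 is a cytoplasmic reader of N6-methyladenosine (m6A), a methyl mark on adenosine in mRNA. Decay of a typical mRNA begins when deadenylases such as CCR4-NOT and PAN2-PAN3 shorten the poly(A) tail. The cap is then removed by DCP2 and its activators, and the body is degraded from the 5′ end by XRN1 or from the 3′ end by the exosome. Nonsense-mediated decay is the surveillance route, led by the helicase UPF1, that removes mRNAs on which translation stops too early. YTHDF proteins are known to connect methylated mRNA to this machinery, in the case of YTHDF2 through CNOT1.

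The share of decay factors with a YTHDF1 window was 66.0%, against a background of 31.8% of the 20052 protein-coding genes in RefSeq. Within the compared groups, 6 of 8 decapping genes were listed (75%), 7 of 11 CCR4-NOT genes (63.6%), 7 of 12 exosome genes (58.3%) and 4 of 7 genes of nonsense-mediated decay (57.1%). Each of these shares is above the background, and the groups are too small for the order among them to be read. The table gives no expression level, for members or for other genes, and the part of expression in these shares was not tested. A gene without a window is not thereby shown to be unbound.

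With a stricter q-value of at most 0.001, 30 members kept a window, against a background of 21.2%. That left 6 of 8 decapping genes, 5 of 11 CCR4-NOT genes, 5 of 12 exosome genes and 4 of 7 genes of nonsense-mediated decay. Since the q-values were adjusted within each gene, a Bonferroni limit over 309808 tested windows of the listed genes was also applied. It kept 19 members against a background of 12.5%. The number of tested windows is a lower bound, since genes with 9 windows enter by a lower bound and 47 genes are left out. The limit is therefore lenient. Decapping retained 5 of 8 genes under this limit, nonsense-mediated decay 3 of 7, the exosome 3 of 12 and CCR4-NOT 2 of 11. Of the decapping genes, PATL1 passed narrowly, with a smallest deposited p-value of 1.45e-07 against the limit of 1.61e-07. Of the compared groups, CCR4-NOT then lay nearest to the background.

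**Figure D1:**
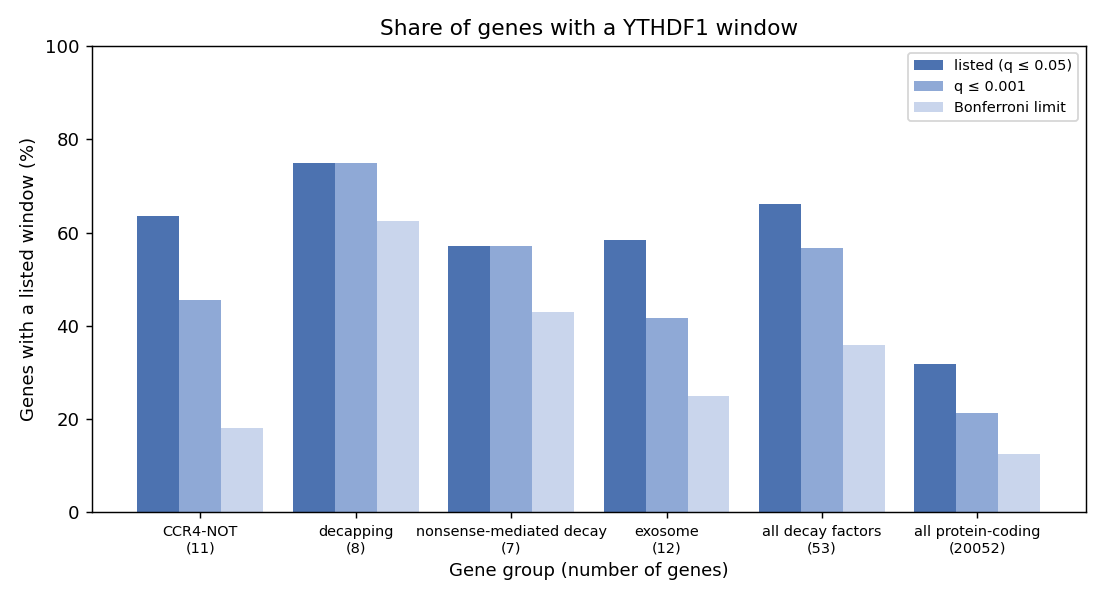
Percentage of genes with a YTHDF1 window (vertical axis) in each group of decay factors, in all 53 decay factors and in all RefSeq protein-coding genes, with the number of genes under each group. Bars show the table as deposited (q-value of at most 0.05), a q-value of at most 0.001 and the Bonferroni limit, under which CCR4-NOT goes from 7 of 11 genes to 2.

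The 35 listed members held 136 windows, which formed 87 regions when touching windows were joined. The median was 3 windows per gene, the same as for all listed protein-coding genes. A single window was listed for 7 members. At the other end, PAN3, TOB2, SMG1, EXOSC6 and ZFP36L1 had 9 windows, the largest number the table gives for a gene. Further windows of these 5 genes may thus be left out of it. Their strongest signal values, percentiles and numbers of regions are therefore to be read as lower bounds. How many windows were tested in each gene was computed from the deposited p-values and q-values, with a median of 35 in the members and also 35 in all listed protein-coding genes. Listed windows made up a median of 9.30% of those tested in the members and 8.93% in all listed protein-coding genes. With a q-value of at most 0.001 these medians were 4.55% and 2.99%.

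Each gene was also described by the signal value of its strongest window, whose median was 2.39 in the listed members and 2.22 in all listed protein-coding genes, with quartiles of 1.94 and 2.56 in the latter. The members spanned 1.52 to 3.38, and 25 of 35 lay above the median of all genes. Genes with more tested windows have more chances of a strong one. When each member was set against genes with a similar number of tested windows, in 20 bins, 24 of 35 exceeded more than 50% of their bin, 12 of them exceeded more than 75%, and 6 of 35 exceeded less than 25%.

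**Figure D2:**
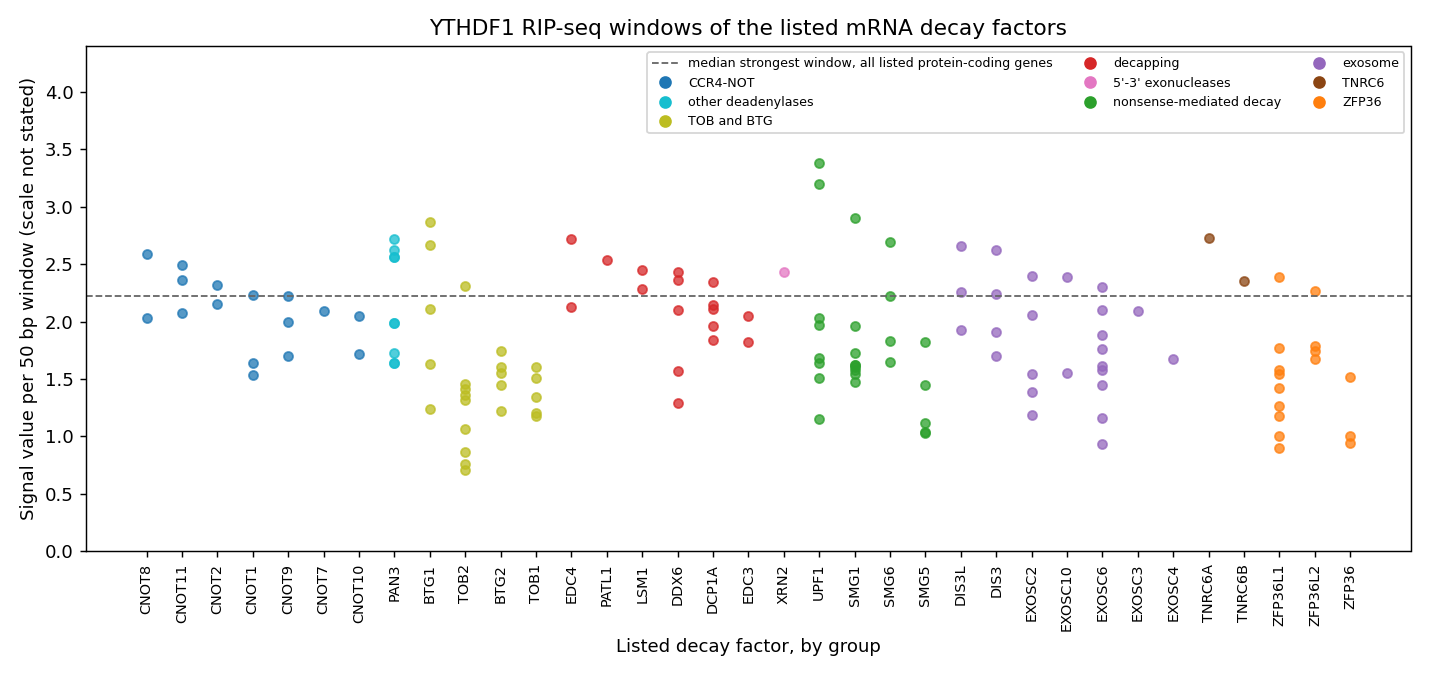
Signal value of each listed 50 bp window (points, vertical axis, scale not stated) for the 35 listed decay factors, coloured by group and sorted by their strongest window within a group. The dashed line is the median strongest window of all listed protein-coding genes (2.22). UPF1 has the highest point at 3.38, and all points of 9 genes lie under the line (CNOT7, CNOT10, TOB1, BTG2, EDC3, SMG5, EXOSC3, EXOSC4 and ZFP36).

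In the CCR4-NOT complex, the scaffold CNOT1, the structural subunits CNOT2, CNOT9, CNOT10 and CNOT11 and the deadenylases CNOT7 and CNOT8 were listed, whereas CNOT3, the ubiquitin ligase CNOT4 and the deadenylases CNOT6 and CNOT6L were not. Their strongest windows lay close together, from 2.05 in CNOT10 to 2.59 in CNOT8, with a median of 2.23. A signal value of 2 was reached in all 7, and in 69.4% of all listed protein-coding genes.

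CNOT1, the subunit on which the complex is assembled, had 3 of 95 tested windows listed, at signal values of 2.23, 1.64 and 1.53. The strongest began 25 bp from the RefSeq gene start and the other two lay 43175 bp and 90975 bp into the gene. CNOT1 thus sat at the middle of the table, above 50.1% of listed protein-coding genes. Among genes with a similar number of tested windows it was above 38.8%, and none of its windows passed the Bonferroni limit. CNOT8 had windows at 2.59 and 2.03, 455 bp and 5005 bp from its start. CNOT7, which is closely related to CNOT8 and is likewise a catalytic subunit, had 1 window at 2.09. That window of CNOT7 had a q-value of 0.0169 and did not pass the stricter limits, nor did either window of CNOT10 (2.05 and 1.72, of 6 tested). CNOT9 had 3 adjacent windows at chr2:218580581-218580730, with 2.22, 2.00 and 1.70, and its smallest q-value of 2.43e-08 was below those of the other CCR4-NOT genes.

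Among the remaining deadenylases, PAN3 alone was listed, while the catalytic PAN2 and the poly(A)-specific ribonuclease PARN were not. PAN3, the adaptor that brings PAN2 to poly(A)-binding protein, had windows from 1.64 to 2.72. Its 9 listed windows fell into 6 regions, the earliest of them 564 bp from the gene start and the latest 128614 bp into the gene.

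All of the TOB and BTG genes, antiproliferative adaptors that bind the CAF1 deadenylases CNOT7 and CNOT8, were listed. BTG1 was the strongest of them, with 5 adjacent windows at chr12:92145529-92145778 whose values in order of position were 1.63, 2.67, 2.87, 2.11 and 1.24, a rise and fall within a block near the gene start. BTG2 had 1 window of 1.60 near its start and 4 windows at 1.22, 1.74, 1.45 and 1.55 in the middle of the gene. TOB1 was among the weakest members, with 5 windows at 1.34, 1.20, 1.18, 1.51 and 1.60, above 5.79% of listed protein-coding genes. TOB2 had 9 windows, at 1.41, 0.71, 1.36, 1.06, 2.31, 1.32, 1.46, 0.76 and 0.86, all of them between 73.6% and 78.9% of the way through the gene. The BTG pair therefore differed in strength in 1 direction and the TOB pair in the other, with no replicate error to set beside either difference.

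Decapping had the largest listed share of the 4 groups, yet DCP2, the enzyme that cuts the cap, was not listed, and neither was DCP1B. The listed genes were the DCP2 cofactor DCP1A, the scaffolds EDC3 and EDC4, the helicase DDX6, the activator PATL1 and LSM1, which belongs to the LSM ring that binds shortened tails. EDC4 had the strongest window of the group, 2.72, with a second at 2.13. EDC3 had the lowest maximum, with adjacent windows at 2.05 and 1.82. The range in between was narrow, and 5 of the 6 genes passed the Bonferroni limit, EDC3 being the exception.

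DCP1A had 5 windows, at 2.34 and 2.14 within 100 bp of the gene start and at 1.84, 2.11 and 1.96 at 43264 bp, 54814 bp and 54914 bp. DDX6 had 5 windows, all between 5331 bp and 5631 bp from the start, at 2.36, 2.10, 1.57, 1.29 and 2.43. PATL1 and LSM1 had fewer tested windows (22 and 12) and values of 2.54 for PATL1 and 2.45 and 2.28 for LSM1. Of the 5′-to-3′ exonucleases downstream of decapping, the cytoplasmic XRN1 was not listed and the mainly nuclear XRN2 had 1 window at 2.43.

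In nonsense-mediated decay the strongest windows ran from 1.82 in SMG5 to 3.38 in UPF1. UPF1, its central helicase, had the highest listed signal value of all decay factors, 3.38. It was above 97.1% of listed protein-coding genes and above 95.0% of those with a similar number of tested windows. Its 5 adjacent windows at chr19:18832139-18832388 had values of 1.15, 1.51, 1.68, 3.20 and 3.38, so the signal rose along the block and the last windows of it were the strongest. A further 3 windows at 2.03, 1.64 and 1.97 lay 14030 bp, 24030 bp and 34130 bp into the gene. UPF1 had 111 windows tested, and its smallest q-value was 3.70e-14.

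SMG1, the kinase that phosphorylates UPF1, had a strongest window of 2.90 and 8 others of 1.47 to 1.96. Its values are uncertain, since human SMG1 has near-identical pseudogene copies, of which 5 were also listed (SMG1P1 to SMG1P5, strongest windows of 2.02, 3.93, 3.07, 3.35 and 4.69), and the treatment of reads with several matches is not given in the sources used here. SMG6, the endonuclease, had windows at 2.69 and 2.22 within 500 bp of the gene start and at 1.65 and 1.83 further along. SMG5, an adaptor that binds phosphorylated UPF1, was the weakest of the group, with 5 windows at 1.82, 1.45, 1.12, 1.04 and 1.03, and it passed the Bonferroni limit in none of them. UPF2, UPF3A and UPF3B, which link UPF1 to the exon junction complex, were not listed.

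In the exosome, 5 of the 10 EXOSC genes were listed (EXOSC2, EXOSC3, EXOSC4, EXOSC6 and EXOSC10), as were both DIS3 genes, while EXOSC1, EXOSC5, EXOSC7, EXOSC8 and EXOSC9 were not. The exosome is a barrel of subunits without catalytic activity in human cells, to which the nucleases EXOSC10, DIS3 and DIS3L are attached. All 3 nucleases had a window, and the DIS3 genes led the group. DIS3L had 3 windows at 2.66, 2.26 and 1.93. DIS3, its nuclear relative, had 4 adjacent windows at chr13:72781670-72781869 with 1.91, 1.70, 2.62 and 2.24, all within 250 bp of the gene start. The maxima of the DIS3 pair thus differed by little, although the windows of DIS3L were spread over a longer stretch. EXOSC10 had windows at 2.39 and 1.55.

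Among the barrel and cap subunits, EXOSC2 had a maximum of 2.40, EXOSC6 of 2.30, EXOSC3 of 2.09 and EXOSC4 of 1.67, the lowest of the exosome. The single window of EXOSC4 had a q-value of 0.0305 and lay 50 bp from the gene end. The single window of EXOSC3 overlapped a window assigned to AL138752.2 on the same strand, the only shared window among the 136, and without shared windows the exosome count fell from 7 to 6. EXOSC6 had 9 windows from 0.93 to 2.30, in 3 regions between 312 bp and 812 bp from the gene start.

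**Figure D3:**
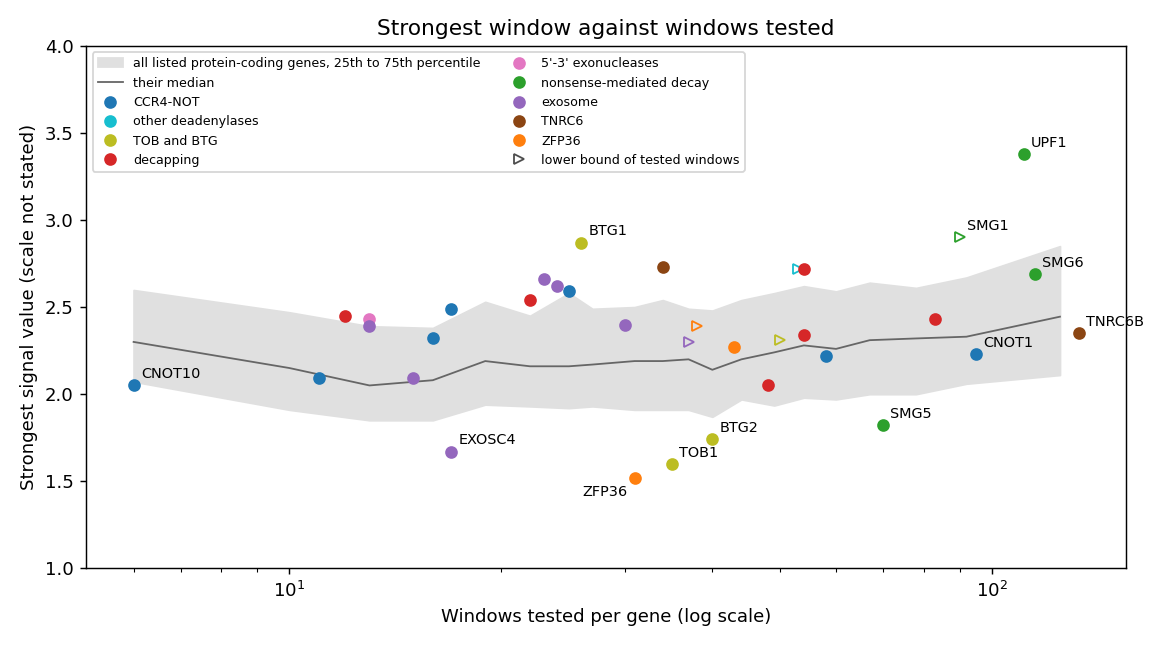
Strongest signal value of each listed decay factor (vertical axis, scale not stated) against the number of windows tested in the gene (horizontal axis, log scale), over the median (line) and the 25th to 75th percentile (grey) of all listed protein-coding genes in 20 bins. Open triangles mark the 5 genes with 9 windows, for which the number tested is a lower bound. Within their own bins, 12 of the 35 genes exceed the 75th percentile, UPF1 at 3.38 having the highest value, and 6 lie under the 25th (CNOT10, SMG5, BTG2, EXOSC4, TOB1 and ZFP36).

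TNRC6A and TNRC6B, the partners of Argonaute in microRNA silencing, each had 1 window, at 2.73 (119555 bp into the gene) and 2.35 (219984 bp into the gene), and TNRC6C was not listed. All 3 ZFP36 genes, which bind AU-rich elements and recruit CCR4-NOT, were listed. ZFP36 had the lowest maximum of the 35 members, with windows at 0.94, 1.52 and 1.00, although its smallest q-value was 2.58e-06. ZFP36L2 had 4 windows, at 1.67, 2.27, 1.79 and 1.74. ZFP36L1 had windows at 1.00 and 0.90 and a block of 7 adjacent windows at 1.42, 2.39, 1.54, 1.58, 1.26, 1.18 and 1.77, and it had a smallest q-value of 6.99e-14, the lowest after that of UPF1. A low signal value could thus go with a small q-value, as in ZFP36, and the ZFP36 genes differed more in signal value than in being listed.

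All 136 windows lay inside the RefSeq interval of their gene on GRCh38.p14. Whether a window falls in an exon, an intron or a UTR was not analysed here. A window starting within 500 bp of the gene start was found in 19 of 35 members (54.3%), against 43.4% of 6256 listed protein-coding genes with a position. In CCR4-NOT this held for 6 of 7 genes, CNOT9 being the exception at 11742 bp, and in the exosome for 6 of 7, EXOSC4 being the exception. It held for 2 of 6 decapping genes (DCP1A and LSM1) and for 2 of 4 genes of nonsense-mediated decay (UPF1 and SMG6). The strongest window itself lay within 500 bp of the start in 5 of 7 CCR4-NOT genes, 3 of 7 exosome genes and 13 of 35 members (37.1%), against 30.9% of the listed protein-coding genes. Only SMG5 and EXOSC4 had a window within 500 bp of the gene end (5.71% of members, against 5.31%).

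Counted by window, 37 of the 136 lay near the start (27.2%), against 24.3% in all listed protein-coding genes. The 5 genes at the maximum of 9 windows bear on this share, because windows are numbered by coordinate and none has a number above 9. Any windows left out would lie on the 5′ side of those listed in SMG1, TOB2, ZFP36L1 and EXOSC6. Without genes at the maximum, 18 of 30 members (60.0%) had a window near the start, against 42.5%, and 34 of 91 windows (37.4%) lay there, against 26.9%. With all genes included, the median signal value of the members was 2.10 near the start and 1.67 elsewhere, and that of all listed protein-coding genes 1.99 and 1.78. Without genes at the maximum, these medians were 2.125 and 1.82 in the members and 1.99 and 1.83 in listed protein-coding genes. The signal was thus higher near the start in the members and in the listed protein-coding genes.

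**Figure D4:**
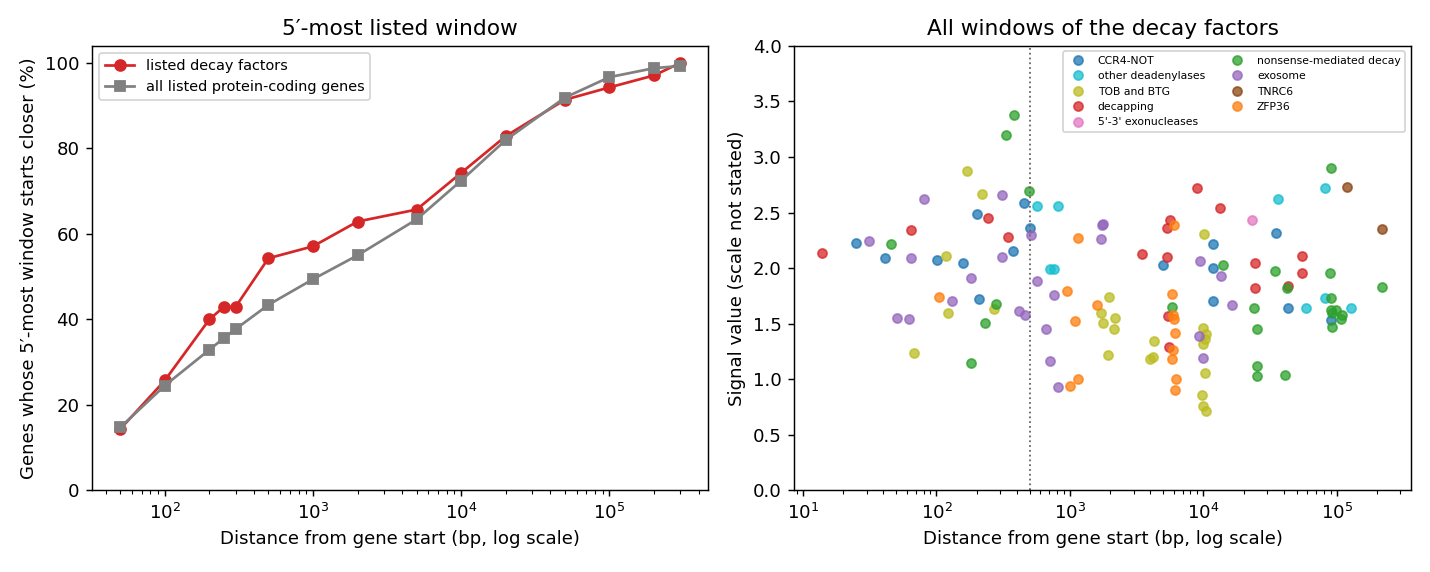
Left, percentage of listed decay factors (red) and of all listed protein-coding genes (grey) whose 5′-most window starts closer to the RefSeq gene start than the distance on the horizontal axis (bp, log scale), 54.3% and 43.4% at 500 bp. Right, signal value (scale not stated) of the 136 windows of the decay factors against that distance, coloured by group, with 500 bp as the dotted line and the UPF1 windows of 3.20 and 3.38 to its left.

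Sequence could be shown for 5 of these start-proximal windows, those that lie in the RefSeq promoter sequences (250 bases before to 50 after an annotated start, GRCh38.p14) by at least 30 bases. The 5 sequences are given to show the reference letters, on the RNA strand, under listed windows near gene starts in each of the 4 compared groups. A stretch of 30 covered bases inside each window, centred on the first match of the DRACH motif or, without a match, on the covered bases, is printed 5′ to 3′, in the order of their signal values (2.66, 2.22, 2.15, 2.14 and 1.55), and capitals mark a DRACH word, the sequence context in which m6A is usually written.
DIS3L, chr15:66293619-66293648, plus strand: tgctgctgctgaGGACCttccagggccgca
SMG6, chr17:2303702-2303731, minus strand: cagccgcgaagatggcggaagggctggagc
CNOT2, chr12:70243405-70243434, plus strand: taaaggtcttgctcccagcagcctccgcgg
DCP1A, chr3:53347497-53347526, minus strand: ggattcaagatggaggcgctgagtcgagct
EXOSC10, chr1:11099779-11099808, minus strand: gcccagggtcctgtcggcgaccagcgcaac

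DRACH was searched as 18 words of 5 letters, with A, G or T, then A or G, then AC, then A, C or T, on the RNA strand. It was present in the DIS3L window, the strongest of the 5, and not in the covered bases of the other 4. Of the 3 member windows that lie wholly inside a promoter sequence, 1 held the word (33.3%), against 347 of 885 such windows in all listed protein-coding genes (39.2%) and 49.6% of the 50 bases after the annotated start in the 35116 promoter sequences. The member windows and the 885 windows leave out chromosome 8, whereas the 35116 promoter sequences were not filtered by chromosome. The 885 windows belong to listed genes and may also lie before an annotated start. The shares of 39.2% and 49.6% therefore do not compare like positions or like genes. A match describes the letters of these stretches and does not show a methylated site.

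A second list held 57 further genes of the same routes, and 32 of them were listed (56.1%), with a median strongest window of 2.32. Nonsense-mediated decay had 8 of 10 genes listed, among them the release factor ETF1 at 3.01. Decapping had 3 of 12, the listed ones being LSM14A, LSM14B and EIF4ENIF1, and none of LSM2 to LSM7, which form the ring with LSM1, was listed. The further genes of deadenylation (5 of 7), the exosome (6 of 13), microRNA effectors (3 of 5) and RNA-binding regulators of decay (7 of 10) fell in between. The 75% among the decapping members was thus not matched by the decapping genes of the second list (25%). At a q-value of at most 0.05, the listed share of CCR4-NOT and the further deadenylation genes, of the exosome and of nonsense-mediated decay was above the background of 31.8% in both lists.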

How the data were processed

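RIP-seq libraries (2 IP-YTHDF1, 2 input) were made with the Magna RIP kit, an antibody to FLAG and the SMARTer Stranded kit with depletion of ribosomal RNA. The submitters' processing notes name STAR 2.7.3a and GRCh38. The peak caller is not given in the sources used here. The authors deposited 1 table of 50 bp windows, with a signal value and rank treated here as a score of unstated scale, and a p-value and q-value per window, the largest q-value being 0.05. The columns hold nothing per library, so IP-YTHDF1 was not tested against input here and depth is unknown. The 53 members and all lists were chosen with earlier results of these data known.

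Of the rows, 1 exact repeat was dropped. Genes were matched by symbol to RefSeq (GRCh38.p14, 6368 of 6679 protein-coding symbols), whose intervals gave distances to gene start and end. Starts were made 1-based. The deposited q-values equal p-values adjusted within a gene by the Benjamini-Hochberg procedure where this could be checked, so the number of tested windows is rank times q-value over p-value, a lower bound in genes with 9 windows. On simulated data it was recovered within 2% in 100% of 370 complete genes and in 73.8% of 229 genes cut to 9 windows, for which the lower bound used instead held in 100%. For 47 listed genes the number of tested windows could not be computed. Values were computed with Python 3.11.15, pandas 2.3.3 and NumPy 2.4.6. All members were accounted for by name. In the second list, 1 gene is counted but not reported here by name. Full windows were given for the strongest and weakest gene of each compared group, for related pairs and for CNOT1, and ranges for most others. Alternatives were a q-value of at most 0.001, a Bonferroni limit (p-value of at most 1.61e-07), a signal value of at least 2, leaving out shared windows or genes with 9 windows, the mean window per gene, and joined regions. Distances of 250 bp and 1000 bp were added after seeing the data.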

Additional observations from a re-analysis of the deposited data

How the results depend on the processing

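Under the Bonferroni limit, listed members fell from 35 to 19, CCR4-NOT from 7 to 2 and the exosome from 7 to 3, while decapping kept 5 and nonsense-mediated decay 3. Joining touching windows turned 136 windows into 87 regions. All other alternatives moved these counts by less than 1.5 times. Listed members numbered 30 of 53 at the stricter q-value limit of 0.001, against a background of 21.2% of RefSeq protein-coding genes. They numbered 30 when a signal value of at least 2 was required (background 22%) and 34 without shared windows (background 30.1%). The median strongest signal value was 2.42 at that stricter limit, 2.37 without genes at 9 windows and 2.07 as the mean window per gene. The listed share of tested windows, which is not a count, moved more, from a median of 9.3% to 4.55% at a q-value limit of 0.001. Members with a window near the gene start numbered 15 within 250 bp (all listed protein-coding genes, 35.6%) and 20 within 1000 bp (49.4%).

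No paired analysis was possible because single libraries have no columns in the peak list, which also kept each replicate from being left out in turn. The planned overlap with exons and UTRs and the protein identity of related genes were not run. Expression in input RNA was not analysed here, so a share of listed genes above the background was not separated from how strongly these genes are expressed.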
